A study of Mus musculus with 19 samples.

Results

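Neuronal splicing and RNA-binding regulators were followed in the mouse cerebellum through 10 genes: Ptbp1, Ptbp2, Nova1, Nova2, Rbfox1, Rbfox2, Rbfox3, Elavl2, Elavl3 and Elavl4. They were chosen by name, and all 10 are among the 22193 genes of both deposited tables. The values are FPKM, that is fragments scaled to transcript length and to library size, from bulk cerebellar RNA of 19 samples of C57BL/6 mice at postnatal day 60. Olig1Cre deleted Gsα conditionally in 8 samples (Olig1-Gnas), hGFAPCre did so in 8 others (hGFAP-Gnas), and 3 samples were wild type (Ctrl). The cells in which either Cre acted were not measured here. Gsα, which Gnas encodes, couples receptors to cAMP production. According to the title, loss of Gsα bears on Sonic hedgehog medulloblastoma, a tumor of granule neuron progenitors, and the name of the hGFAP-Gnas table calls its samples tumor. A difference from Ctrl may therefore be one between tumor and normal cerebellum. In bulk tissue, fewer cells of a type and less RNA per cell cannot be told apart.

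These proteins decide which exons a young neuron keeps and which of its messages last. PTBP1 binds pyrimidine-rich RNA and holds neuronal exons back in progenitors and non-neuronal cells, and its relative PTBP2 takes over as neurons are born. NOVA proteins bind YCAY clusters and RBFOX proteins bind UGCAUG, and both families set the exons of synaptic genes. The neuronal ELAVL proteins, also called Hu proteins, bind U-rich RNA, stabilize messages and act on splicing. In the cerebellum RBFOX3 is the NeuN antigen, which stains granule neurons and is not seen in Purkinje cells.

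The link between the first pair of genes runs through a single cassette exon. PTBP1 makes the Ptbp2 message skip exon 10, which shifts the reading frame and sends the message to decay. The exon is shown because the levels of Ptbp1 and Ptbp2 are set against each other below. It has 34 bases, which is not a multiple of 3, and is exon 10 of 14 in a GENCODE transcript, at chr3:119724612-119724645 of GRCm38 on the minus strand. Capitals mark the exon, and 20 bases of each neighbouring exon are in lower case.
Ptbp2 exon 10: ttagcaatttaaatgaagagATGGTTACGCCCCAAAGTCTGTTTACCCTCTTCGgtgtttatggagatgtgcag
Gene-level FPKM do not show whether this exon was included.

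Promoters are shown for Ptbp1, whose level was raised most among these genes, and Rbfox3, which stood highest in Ctrl. They run from 250 bases before to 50 after the annotated start, from RefSeq on GRCm38.p6, which holds such an entry for 9 of the 10 genes. Capitals mark matches on either strand to the motifs searched, none of which contains another. The GC box was searched as GGGCGG. The letters CCAAT were searched as such. The TATA box was searched as TATAAA. The E-box was searched as CACGTG. The Ptbp1 promoter lies at chr10:79854182-79854481 on the plus strand, and the Rbfox3 promoter at chr11:118760992-118761291 on the minus strand. Each is the only window entered for its gene, and whether its messages began there in these samples was not tested.
Ptbp1: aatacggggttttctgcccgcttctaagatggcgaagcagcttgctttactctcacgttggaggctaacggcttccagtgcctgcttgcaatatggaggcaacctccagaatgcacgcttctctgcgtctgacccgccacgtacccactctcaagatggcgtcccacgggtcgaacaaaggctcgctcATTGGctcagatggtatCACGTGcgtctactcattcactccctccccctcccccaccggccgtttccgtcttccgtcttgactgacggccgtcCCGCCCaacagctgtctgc
Rbfox3: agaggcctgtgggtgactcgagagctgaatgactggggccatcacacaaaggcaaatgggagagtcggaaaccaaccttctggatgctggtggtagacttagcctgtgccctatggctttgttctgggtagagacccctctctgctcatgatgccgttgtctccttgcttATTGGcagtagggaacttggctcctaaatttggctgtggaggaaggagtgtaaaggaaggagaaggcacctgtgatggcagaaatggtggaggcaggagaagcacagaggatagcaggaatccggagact
The Ptbp1 window holds 22 CpG and the Rbfox3 window 4, against a median of 7 over 32851 promoters. The Ptbp1 window has 1 GC box, 1 CCAAT and 1 E-box, and the Rbfox3 window has 1 CCAAT. Among all promoters 35.7% hold the GC box, 37.4% CCAAT, 13.6% the TATA box and 7.15% the E-box, so these are descriptions of letters and not sites of binding.

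A listed 0 can be a failed estimate, which limits what Gnas shows. Gnas was above 0 in 5 of 8 Olig1-Gnas libraries at 24.05 to 121.5 FPKM, against 651 and 798 FPKM in the 2 Ctrl libraries above 0 in that table. In the table of hGFAP-Gnas, 1 of 8 hGFAP-Gnas libraries was above 0, at 40.9 FPKM, against 798 FPKM in the 1 Ctrl library above 0. Summed FPKM were 603067 to 689165 in Olig1-Gnas, 505739 to 659634 in hGFAP-Gnas and 508329 to 525832 in Ctrl libraries. Read totals were not given. Steps among the lowest values put 10 libraries at 0.835 to 1.07 of the depth of Ctrl 2 and the other 9 at 0.268 to 0.429. None of the 10 regulators was listed at 0 in any library, and all stood at 1 FPKM or more in all 19, so no filter on low values touched them. Log2 folds, knockout over Ctrl, were computed from log2(FPKM + 1) and are given ± SE. The call by limma required a p under 0.05 after Benjamini-Hochberg adjustment over all tested genes.

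In Olig1-Gnas cerebellum Ptbp1, Ptbp2 and Elavl2 rose, Rbfox1 and Rbfox3 fell, and Nova1, Nova2, Rbfox2, Elavl3 and Elavl4 were not called. In hGFAP-Gnas cerebellum Ptbp1, Ptbp2, Nova1, Nova2 and Elavl2 rose, Rbfox1 fell, and Rbfox2, Rbfox3, Elavl3 and Elavl4 were not called. Of the 10 genes, 3 were called higher in Olig1-Gnas, where 36.2% of all 14183 tested genes were, and 2 lower, where 23.6% of all were. In hGFAP-Gnas 5 were called higher and 1 lower, where 26.1% and 12.8% of all 14305 tested genes were, or 38.9% either way (59.8% in Olig1-Gnas). In Olig1-Gnas these shares were near the background. In hGFAP-Gnas the share called higher was above it, but it rests on 10 genes. There the number called changed from 1 to 7 when single libraries were left out. Neither is therefore read as a result about these genes as a group. Their median log2 fold was 0.22 in Olig1-Gnas and 0.44 in hGFAP-Gnas, and over all tested genes it was 0.22 and 0.19. Both comparisons share the same 3 Ctrl samples.

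**Figure D1:**
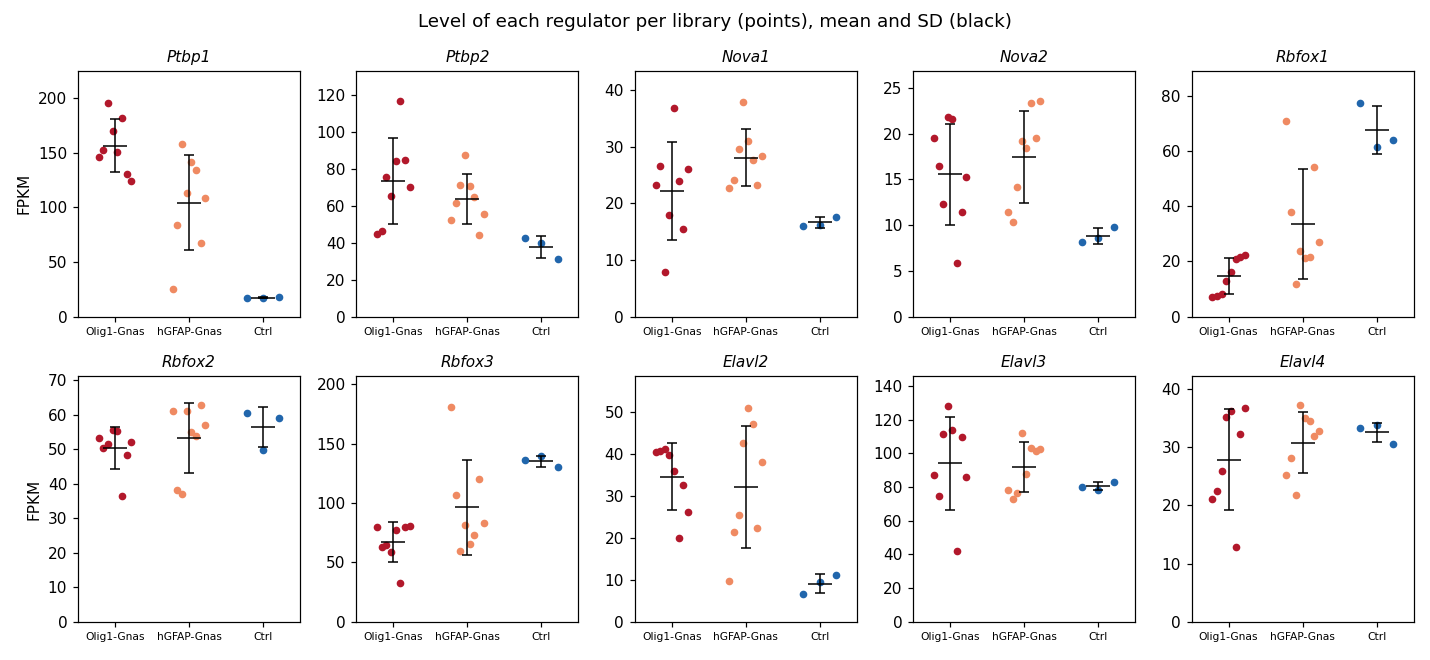
FPKM (linear axis from 0) of each of the 10 regulators in every library, with Olig1-Gnas (n = 8), hGFAP-Gnas (n = 8) and Ctrl (n = 3) from left to right; black lines are the mean and SD. Ptbp1 stood at 124 FPKM or more in every Olig1-Gnas library and at 17.85 FPKM or less in Ctrl, and Rbfox1 at 22.2 FPKM or less in every Olig1-Gnas library and at 61.6 FPKM or more in Ctrl.

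Ptbp1, the repressor of neuronal exons, lies on chromosome 10 at 79314121 to 79337379 of mm9. In the 8 Olig1-Gnas libraries its lowest, median and highest levels were 124, 152 and 196 FPKM, in the hGFAP-Gnas libraries 25.5, 111 and 158.5 FPKM, and in Ctrl 1, 2 and 3 it stood at 16.7, 17.2 and 17.85 FPKM. Every knockout library of either kind lay above every Ctrl library, and hGFAP-Gnas 1 was the one nearest to Ctrl. Its log2 fold was 3.10 ± 0.14 in Olig1-Gnas (adjusted p = 7.36e-09) and 2.36 ± 0.45 in hGFAP-Gnas (adjusted p = 0.00770). The exact permutation p was 0.00606 in each, the smallest that 8 against 3 samples can give. Among the deeper libraries alone the rise in hGFAP-Gnas was 2.16 and not called (adjusted p = 0.259), and among the shallower ones it was 2.54 (adjusted p = 0.0300).

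Ptbp2, the relative that neurons use, rose as well. It stood at a lowest, median and highest of 44.6, 72.7 and 117 FPKM in Olig1-Gnas libraries, at 44.0, 63.0 and 87.7 FPKM in hGFAP-Gnas libraries, and at 42.4, 39.85 and 31.0 FPKM in Ctrl 1, 2 and 3. All 16 knockout libraries exceeded the highest Ctrl library, some of them narrowly. Log2 folds were 0.89 ± 0.26 in Olig1-Gnas (adjusted p = 0.00973) and 0.72 ± 0.20 in hGFAP-Gnas (adjusted p = 0.0190). The call in Olig1-Gnas was lost without Ctrl 3, the lowest Ctrl library (0.76, adjusted p = 0.0559), among the shallower libraries (0.85, adjusted p = 0.0981) and with the replicate number as a block (0.52, adjusted p = 0.174). The call in hGFAP-Gnas was lost under 6 of 25 alternatives, among them leaving out Ctrl 1, 2 or 3 in turn (adjusted p = 0.0566, 0.0629 and 0.0879).

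Because Ptbp1 rose more than Ptbp2, the balance of the pair turned over. FPKM are per length, so the levels of both genes can be set against each other. The ratio of Ptbp1 to Ptbp2 was 1.545 at the lowest, 2.19 at the median and 3.28 at the highest in Olig1-Gnas libraries, 0.4865, 1.75 and 2.22 in hGFAP-Gnas libraries, and 0.393, 0.432 and 0.5755 in Ctrl 1, 2 and 3. Ptbp1 thus exceeded Ptbp2 in every knockout library but hGFAP-Gnas 1, whose ratio lay within the Ctrl range. In hGFAP-Gnas the ratios of both depth classes overlapped. Within Olig1-Gnas the ratio was 2.60 to 3.28 in the 4 shallower libraries and 1.545 to 1.79 in the 4 deeper ones. The neuronal gene Snap25 was split likewise, at 57.4 to 74.7 FPKM in the shallower and 137 to 464 FPKM in the deeper ones. Both Olig1-Gnas libraries with Y-linked RNA, Olig1-Gnas 5 and 8, were deeper ones. Depth, tissue make-up and sex thus cannot be told apart in this split. Dlg4, which encodes PSD-95 and is a message that PTBP proteins hold down through decay, averaged 35.8 ± 9.96 FPKM in Olig1-Gnas and 55.9 ± 27.0 FPKM in hGFAP-Gnas (SD, n = 8 each), against 122 ± 4.31 FPKM in Ctrl (n = 3). Dlg4 fell in both (log2 folds -1.79 ± 0.21 and -1.23 ± 0.34, adjusted p = 2.39e-05 and 0.0192). The part of the Ptbp genes in this fall was not tested. Of 6 genes of mature granule neurons, Gabra6 among them, 6 were called lower in Olig1-Gnas and 4 in hGFAP-Gnas.

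**Figure D2:**
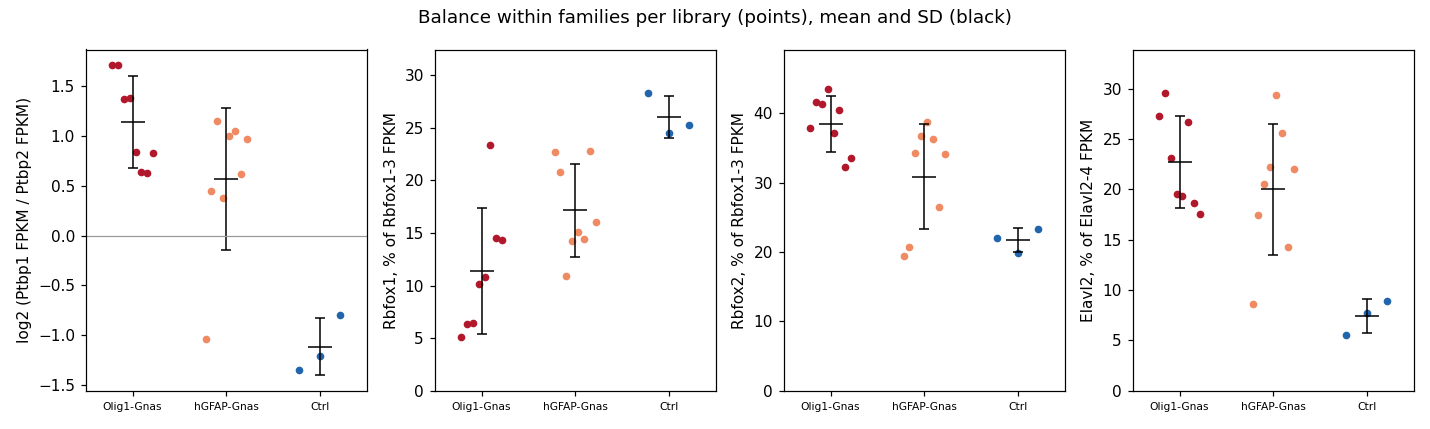
Balance within families in every library, by group from left to right, with mean and SD in black: log2 of Ptbp1 over Ptbp2 FPKM (left), then Rbfox1 and Rbfox2 as percent of summed Rbfox1 to Rbfox3 FPKM, and Elavl2 as percent of summed Elavl2 to Elavl4 FPKM. The log2 ratio was above 0 in all knockout libraries except hGFAP-Gnas 1, at -1.04, and below 0 in all 3 Ctrl libraries.

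Nova1 and Nova2, the neuronal regulators first known as targets of autoimmune antibodies, rose in hGFAP-Gnas and were not called in Olig1-Gnas. Nova1 stood at 7.88, 23.6 and 36.9 FPKM (lowest, median, highest) in Olig1-Gnas libraries, at 22.7, 28.0 and 38.0 FPKM in hGFAP-Gnas libraries, and at 16.1, 16.2 and 17.7 FPKM in Ctrl 1, 2 and 3. All hGFAP-Gnas libraries lay above Ctrl, while Olig1-Gnas libraries lay on both sides, with Olig1-Gnas 3 lowest. In log2 folds this was 0.29 ± 0.34 in Olig1-Gnas (adjusted p = 0.475) and 0.71 ± 0.16 in hGFAP-Gnas (adjusted p = 0.0104). The call in hGFAP-Gnas was lost under 6 of 25 alternatives. Among them were one fit over all groups and leaving out Ctrl 1 or Ctrl 2 (adjusted p = 0.0538 and 0.0532 for the last 2).

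Nova2 stood at 5.83, 15.9 and 21.8 FPKM in Olig1-Gnas libraries, at 10.4, 18.8 and 23.6 FPKM in hGFAP-Gnas libraries, and at 8.11, 8.58 and 9.78 FPKM in Ctrl 1, 2 and 3. Only Olig1-Gnas 6 fell below the Ctrl range, and the other 15 knockout libraries lay above it. The log2 fold was 0.87 ± 0.24 in hGFAP-Gnas (adjusted p = 0.0210), with an adjusted p of 0.0575 to 0.0833 when a Ctrl library was left out. This call was lost under 5 of 25 alternatives. In Olig1-Gnas the log2 fold was 0.67 ± 0.32 (adjusted p = 0.0880), and 0.84 when Olig1-Gnas 6 was left out (adjusted p = 0.00355). The Nova1 to Nova2 ratio ranged from 0.637 to 4.12 in Olig1-Gnas, from 1.19 to 2.33 in hGFAP-Gnas and from 1.81 to 1.98 in Ctrl libraries. All Olig1-Gnas libraries but Olig1-Gnas 6, at 4.12, lay below the Ctrl range, at 0.637 to 1.71. The hGFAP-Gnas libraries lay on both sides of it. Neither gene thus gained on the other in all libraries of a knockout.

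In the Rbfox family Rbfox1 and Rbfox3 fell in Olig1-Gnas, and Rbfox2 was not called in either knockout. Rbfox1, a splicing factor of mature neurons, stood at 7.20, 14.5 and 22.2 FPKM (lowest, median, highest) in Olig1-Gnas libraries, at 11.8, 25.3 and 71.1 FPKM in hGFAP-Gnas libraries, and at 77.6, 61.6 and 64.1 FPKM in Ctrl 1, 2 and 3. All Olig1-Gnas libraries lay below every Ctrl library. So did 7 of 8 hGFAP-Gnas libraries, of which hGFAP-Gnas 7, at 54.1 FPKM, came close to Ctrl, and hGFAP-Gnas 1 lay within the Ctrl range. The log2 fold was -2.26 ± 0.35 in Olig1-Gnas (adjusted p = 1.87e-04). The value of -1.18 ± 0.43 in hGFAP-Gnas only just passed (adjusted p = 0.04996, exact permutation p = 0.0545), and it did not pass under 18 of 25 alternatives. Within Olig1-Gnas the 4 shallower libraries held 7.20 to 12.95 FPKM and the 4 deeper ones 16.1 to 22.2 FPKM. Log2 folds against Ctrl libraries of the same class were -2.74 and -1.73. As for the ratio of Ptbp1 to Ptbp2, depth cannot be told apart from tissue make-up and sex in this split.

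Rbfox3, which encodes the neuronal marker NeuN, stood at 32.4, 71.2 and 80.7 FPKM in Olig1-Gnas libraries, at 59.3, 82.3 and 181 FPKM in hGFAP-Gnas libraries, and at 136, 139 and 130.2 FPKM in Ctrl 1, 2 and 3. Every Olig1-Gnas library was below every Ctrl library. Of hGFAP-Gnas libraries 7 were below, and hGFAP-Gnas 1 was above every Ctrl library. The log2 fold was -1.05 ± 0.24 in Olig1-Gnas (adjusted p = 0.00245), and -1.10 with an adjusted p of 0.0584 among the deeper libraries. It was -0.57 ± 0.30 in hGFAP-Gnas (adjusted p = 0.136), and -0.71 without hGFAP-Gnas 1 (adjusted p = 0.0124).

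Rbfox2, the family member that many tissues use, stood at 36.3, 51.8 and 55.6 FPKM in Olig1-Gnas libraries, at 37.0, 56.0 and 62.7 FPKM in hGFAP-Gnas libraries, and at 60.5, 49.85 and 59.1 FPKM in Ctrl 1, 2 and 3. The groups overlapped. The log2 folds were -0.17 (95% interval -0.46 to 0.12, adjusted p = 0.294) and -0.10 (-0.51 to 0.31, adjusted p = 0.678). Upper quartile scaling took the value in Olig1-Gnas to -0.36 and called it (adjusted p = 0.0337). As a share of the summed FPKM of the 3 genes, Rbfox2 made up 32.2 to 43.55% in Olig1-Gnas, 19.5 to 38.8% in hGFAP-Gnas and 19.9 to 23.3% in Ctrl libraries. Rbfox1 made up 5.12 to 23.35%, 10.9 to 22.8% and 24.5 to 28.3%, in the same order of groups. The share of Rbfox3 overlapped between groups, at 36.1 to 56.9% in Olig1-Gnas, 46.1 to 58.4% in hGFAP-Gnas and 49.6 to 55.6% in Ctrl libraries.

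Of the neuronal Elavl genes Elavl2 alone was called. Elavl2, which encodes HuB, stood at 19.9, 37.95 and 41.2 FPKM (lowest, median, highest) in Olig1-Gnas libraries, at 9.80, 31.8 and 51.1 FPKM in hGFAP-Gnas libraries, and at 6.68, 9.44 and 11.2 FPKM in Ctrl 1, 2 and 3. All Olig1-Gnas libraries and 7 of 8 hGFAP-Gnas libraries lay above Ctrl, and hGFAP-Gnas 1 lay within its range. Its log2 fold was 1.81 ± 0.23 in Olig1-Gnas (adjusted p = 3.71e-05) and 1.59 ± 0.42 in hGFAP-Gnas (adjusted p = 0.0172). The call in hGFAP-Gnas was lost under 5 of 25 alternatives, among them leaving out Ctrl 1 or Ctrl 2 (adjusted p = 0.0794 and 0.0629). Within Olig1-Gnas, Elavl2 stood at 39.8 to 41.2 FPKM in the 4 shallower libraries and at 19.9 to 36.1 FPKM in the 4 deeper ones. Here too depth cannot be told apart from tissue make-up and sex.

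Elavl3, which encodes HuC, stood at 41.9, 98.4 and 128 FPKM in Olig1-Gnas libraries, at 72.9, 94.4 and 112 FPKM in hGFAP-Gnas libraries, and at 80.1, 78.4 and 83.3 FPKM in Ctrl 1, 2 and 3. Both knockouts spread to either side of Ctrl. The log2 folds of 0.15 (95% interval -0.44 to 0.75, adjusted p = 0.646) and 0.17 (-0.18 to 0.52, adjusted p = 0.410) had no stable sign, since upper quartile scaling took them to -0.04 and to 0. Elavl4, which encodes HuD, stood at 12.8, 29.1 and 36.7 FPKM in Olig1-Gnas libraries, at 21.8, 32.4 and 37.2 FPKM in hGFAP-Gnas libraries, and at 33.3, 33.7 and 30.6 FPKM in Ctrl 1, 2 and 3. Its log2 folds were -0.29 (95% interval -0.88 to 0.31, adjusted p = 0.387) and -0.09 (-0.45 to 0.26, adjusted p = 0.657).

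The share of Elavl2 among the neuronal Elavl messages and the sum of these messages were read without a test. Elavl2 made up 17.6 to 29.6% of the summed FPKM of the 3 genes in Olig1-Gnas, 8.65 to 29.4% in hGFAP-Gnas and 5.56 to 8.92% in Ctrl libraries. The sum itself was 74.6 to 203 FPKM in Olig1-Gnas, 113 to 192 FPKM in hGFAP-Gnas and 120.1 to 125 FPKM in Ctrl libraries. Its medians were 162 and 165 FPKM in Olig1-Gnas and hGFAP-Gnas, against 121.5 FPKM in Ctrl. Elavl1, the family member HuR found in nearly all cells, rose to 29.35 ± 5.05 FPKM in Olig1-Gnas and 22.2 ± 3.45 FPKM in hGFAP-Gnas (SD, n = 8 each), against 15.8 ± 0.910 FPKM in Ctrl (n = 3; log2 folds 0.83 ± 0.15 and 0.45 ± 0.15, adjusted p = 5.36e-04 and 0.0386).

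**Figure D3:**
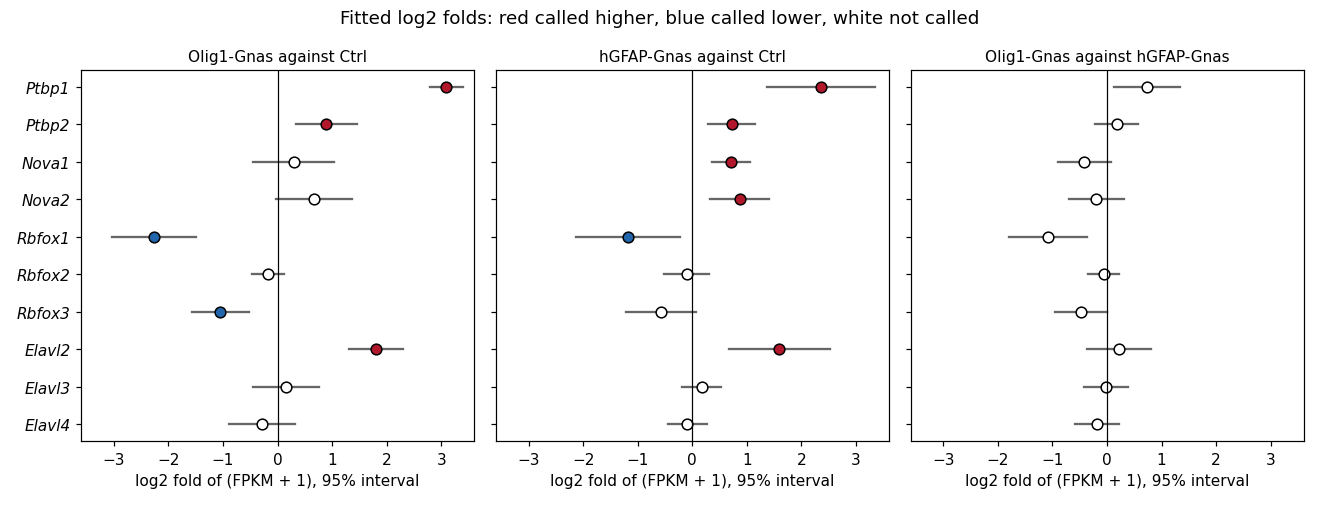
Log2 fold of FPKM + 1 with its 95% interval for each regulator in Olig1-Gnas against Ctrl, hGFAP-Gnas against Ctrl and Olig1-Gnas against hGFAP-Gnas; red points were called higher, blue lower and white not called at an adjusted p under 0.05. Ptbp1 is highest and Rbfox1 lowest in both comparisons with Ctrl, and no gene was called between the knockouts.

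The order of the 10 levels differed between groups. In Ctrl it ran Rbfox3, Elavl3, Rbfox1, Rbfox2, Ptbp2, Elavl4, Ptbp1, Nova1, Elavl2 and Nova2 by mean, and the ranges of neighbours overlapped only between Ptbp2 and Elavl4, Ptbp1 and Nova1, and Elavl2 and Nova2. In Olig1-Gnas it ran Ptbp1, Elavl3, Ptbp2, Rbfox3, Rbfox2, Elavl2, Elavl4, Nova1, Nova2 and Rbfox1. In hGFAP-Gnas it ran Ptbp1, Rbfox3, Elavl3, Ptbp2, Rbfox2, Rbfox1, Elavl2, Elavl4, Nova1 and Nova2. Within either knockout the ranges of all neighbours in the order overlapped. Ptbp1 stood at rank 7 in Ctrl and at rank 1 in both knockouts.

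The knockouts differed in the sex of their samples as far as Y-linked RNA shows it, which reached 1 FPKM of Ddx3y in 2 of 8 libraries of Olig1-Gnas, 7 of 8 of hGFAP-Gnas and 2 of 3 of Ctrl, so sex and Cre line are largely confounded. Between the knockouts themselves none of the 10 genes was called by limma, where 0.41% of all 14386 tested genes were, and 2 had an unadjusted p under 0.05. Rbfox1 averaged 14.6 ± 6.53 FPKM in Olig1-Gnas and 33.6 ± 19.9 FPKM in hGFAP-Gnas (SD, n = 8 each), a log2 difference of -1.08 with a 95% interval of -1.79 to -0.36 (adjusted p = 0.139, exact permutation p = 0.0120 unadjusted). Ptbp1 averaged 156.5 ± 24.45 FPKM in Olig1-Gnas and 104 ± 43.5 FPKM in hGFAP-Gnas, a log2 difference of 0.73 with an interval of 0.13 to 1.34 (adjusted p = 0.172, exact permutation p = 0.00746 unadjusted). These were the 2 genes under 0.05 by the permutation test too. With Y-linked signal as a term their differences were -0.50 for Rbfox1 and 0.44 for Ptbp1 (adjusted p = 0.906 for each). For the other 8 genes the differences lay between -0.47 for Rbfox3 (-0.95 to 0.01) and 0.22 for Elavl2 (-0.37 to 0.81). Elavl3 had the difference nearest to 0, at -0.015 with an interval of -0.42 to 0.39.

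The regulators were set beside markers of the cells that the tissue can hold. Summed FPKM of 6 genes of mature granule neurons were 15.9 to 335 in Olig1-Gnas, 43.8 to 1128 in hGFAP-Gnas and 1217 to 1557 in Ctrl libraries. For 5 Purkinje genes the sums were 8.21 to 432, 56.9 to 1272 and 1551 to 2581, for 4 genes of inhibitory interneurons 12.6 to 360, 40.7 to 709 and 948 to 1303, and for 5 genes of dividing cells 377 to 795, 10.3 to 559 and 0.944 to 1.63, in the same order of groups. For 5 genes of granule neuron progenitors the sums were 422 to 802 in Olig1-Gnas, 28.1 to 771 in hGFAP-Gnas and 5.18 to 7.53 in Ctrl libraries, and all 5 rose in both knockouts. For 3 genes of oligodendrocyte precursors they were 74.2 to 146, 22.2 to 214.5 and 13.4 to 15.6, and all 3 rose in both. For 5 genes of microglia and macrophages they were 334 to 1159, 80.9 to 734 and 40.2 to 55.2, for 5 of oligodendrocytes 10.4 to 166, 80.3 to 563 and 574 to 816, and for 5 of astrocytes and Bergmann glia 127 to 1189, 741 to 2528 and 1974 to 2809. The last sum joins genes that went opposite ways, since Gfap rose to 244 ± 153 FPKM in Olig1-Gnas and 525.5 ± 287 FPKM in hGFAP-Gnas, against 54.5 ± 6.63 FPKM in Ctrl, while Aldoc and Slc1a3 fell in both. For 3 genes of the choroid plexus the sums were 1.65 to 2340 in Olig1-Gnas, 0.961 to 879 in hGFAP-Gnas and 0.405 to 1217 in Ctrl libraries. They were highest in Olig1-Gnas 8, hGFAP-Gnas 8 and Ctrl 3. For 4 vascular genes they were 27.3 to 69.3, 19.6 to 66.3 and 28.15 to 54.3. The part of these cells in the levels of the regulators was not tested.

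Rbfox3 kept a measurable level in libraries with little Gabra6, a GABA receptor subunit of granule neurons. In Olig1-Gnas 1 to 8 Gabra6 stood at 1.51, 0.542, 1.62, 0, 3.27, 0.894, 75.7 and 59.8 FPKM, against 468, 370.4 and 224 FPKM in Ctrl 1, 2 and 3. In the same 8 libraries Rbfox3 stood at 80.1, 62.7, 65.0, 59.1, 77.5, 32.4, 79.8 and 80.7 FPKM, so its level in Olig1-Gnas 4, where Gabra6 is listed at 0, was within the range of the others. Snap25, a synaptic fusion protein of neurons in general, had a median of 106 FPKM in Olig1-Gnas and 258 FPKM in hGFAP-Gnas libraries, against 1686 FPKM in Ctrl. Of the 4 genes listed for neurons in general, Snap25 and the synaptic vesicle gene Syt1 fell in both knockouts. Tubb3, a tubulin that young neurons already carry, rose in both (log2 folds 1.14 ± 0.19 and 1.07 ± 0.30, adjusted p = 3.1e-04 and 0.0197). The dendritic gene Map2 was not called (0.15 and 0.49, adjusted p = 0.325 and 0.0559).

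The hGFAP-Gnas libraries differed widely among themselves. In hGFAP-Gnas 1 to 8 Gabra6 stood at 260.5, 128, 10.1, 4.48, 11.4, 12.4, 159 and 59.9 FPKM, and Mki67, a marker of dividing cells, at 2.70, 43.0, 105.5, 85.1, 164, 165, 56.6 and 122 FPKM. Rbfox1 stood at 71.1, 38.1, 11.8, 23.7, 21.4, 21.5, 54.1 and 26.9 FPKM in these 8 libraries, and Ptbp1 at 25.5, 83.6, 158.5, 114, 141, 134, 67.7 and 109 FPKM. Among them hGFAP-Gnas 1 was highest for Gabra6, Rbfox1 and Rbfox3 and lowest for Mki67, Ptbp1 and Elavl2.

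**Figure D4:**
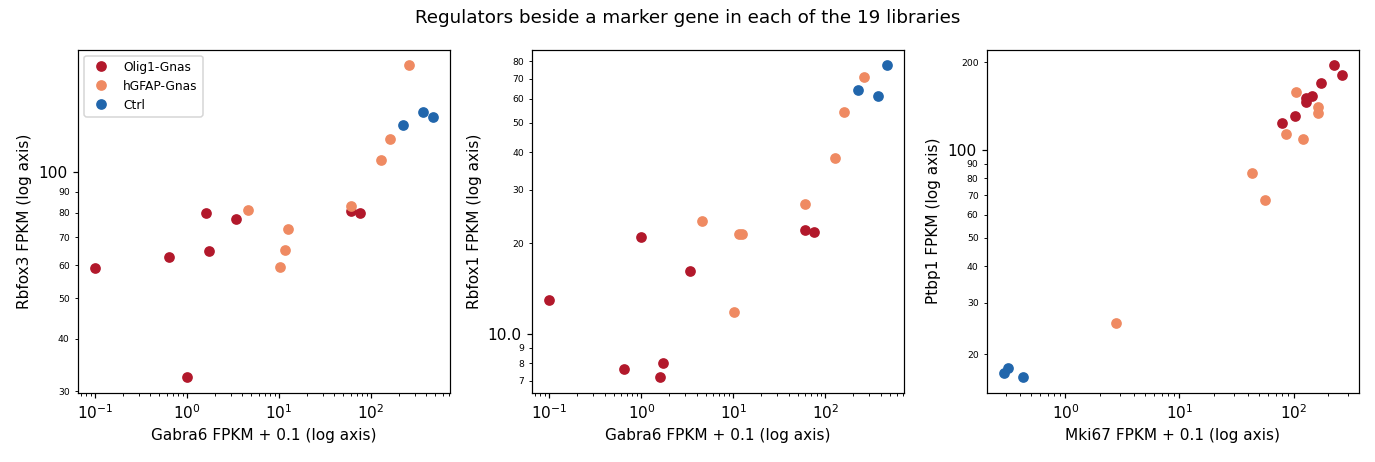
Rbfox3 (left) and Rbfox1 (middle) against the granule neuron gene Gabra6, and Ptbp1 against the proliferation gene Mki67 (right), in FPKM on log axes, 1 point for each of 19 libraries; 0.1 was added to the marker so that a listed 0 can be drawn. Rbfox3 stays between 32.4 and 83.3 FPKM over all libraries with Gabra6 at 75.7 FPKM or less, and hGFAP-Gnas 1 has the lowest Ptbp1 of all 16 knockout libraries, at 25.5 FPKM.

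Other splicing regulators, and SR and hnRNP factors, were read as companion lists. Of 20 tested genes of the first list 8 rose and 4 fell in Olig1-Gnas (median log2 fold 0.28), and 9 rose and 3 fell in hGFAP-Gnas (0.42). Over all tested genes 36.2% rose and 23.6% fell in Olig1-Gnas (median 0.22), and 26.1% rose and 12.8% fell in hGFAP-Gnas (median 0.19), so in Olig1-Gnas the list was near the background. Khdrbs3, which encodes the STAR protein SLM2, rose by 1.85 ± 0.13 and 1.32 ± 0.38 on the log2 scale in Olig1-Gnas and hGFAP-Gnas. Ptbp3, the third PTB relative, rose by 1.70 ± 0.17 and 1.19 ± 0.25, and Raver1, a corepressor that binds PTBP1, by 1.63 ± 0.11 and 1.26 ± 0.21. Msi1, an RNA-binding protein of neural progenitors, rose by 1.37 ± 0.14 and 1.14 ± 0.27, and Celf3, a neuronal CELF protein, by 1.26 ± 0.31 and 1.35 ± 0.31.

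The genes of that list that fell included neuronal ones. Khdrbs2, which encodes the STAR protein SLM1, averaged 0.6999 ± 0.712 FPKM in Olig1-Gnas and 1.49 ± 1.36 FPKM in hGFAP-Gnas, against 4.19 ± 0.591 FPKM in Ctrl (log2 folds -1.70 and -1.24). Celf4, a CELF protein of excitatory neurons, averaged 29.1 ± 11.3 and 44.7 ± 15.2 FPKM, against 84.5 ± 10.5 FPKM in Ctrl (-1.63 and -0.97). Srrm3, a neuronal splicing activator, fell in both (-0.94 and -0.69), and Mbnl2, a muscleblind protein, fell in Olig1-Gnas (-0.92, against -0.76 and not called in hGFAP-Gnas). Srrm4, which switches on neuronal microexons, averaged 17.2 ± 3.56 FPKM in Olig1-Gnas and 15.1 ± 3.73 FPKM in hGFAP-Gnas, against 15.6 ± 2.05 FPKM in Ctrl, and was not called (adjusted p = 0.646 and 0.809).

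Of 26 SR and hnRNP factors, which bind RNA, 25 rose in Olig1-Gnas and 19 in hGFAP-Gnas, and none was called lower. Their median log2 folds were 1.31 and 0.89, and the shares of all tested genes that rose were 36.2% and 26.1%. Hnrnpab rose by 2.88 ± 0.15 and 2.33 ± 0.48, Hnrnpf by 2.56 ± 0.17 and 1.76 ± 0.43, and Hnrnpa2b1 by 1.93 ± 0.18 and 1.33 ± 0.39. Hnrnpr rose by 1.73 ± 0.18 and 1.32 ± 0.29, and Hnrnpa1 by 1.98 ± 0.34 in Olig1-Gnas (1.37 ± 0.57 and not called in hGFAP-Gnas). Hnrnpd, the gene of this list that was not called in Olig1-Gnas, is listed at 0 in Olig1-Gnas 6, and Hnrnpk, not called in hGFAP-Gnas, is listed at 0 in hGFAP-Gnas 6.

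**Figure D5:**
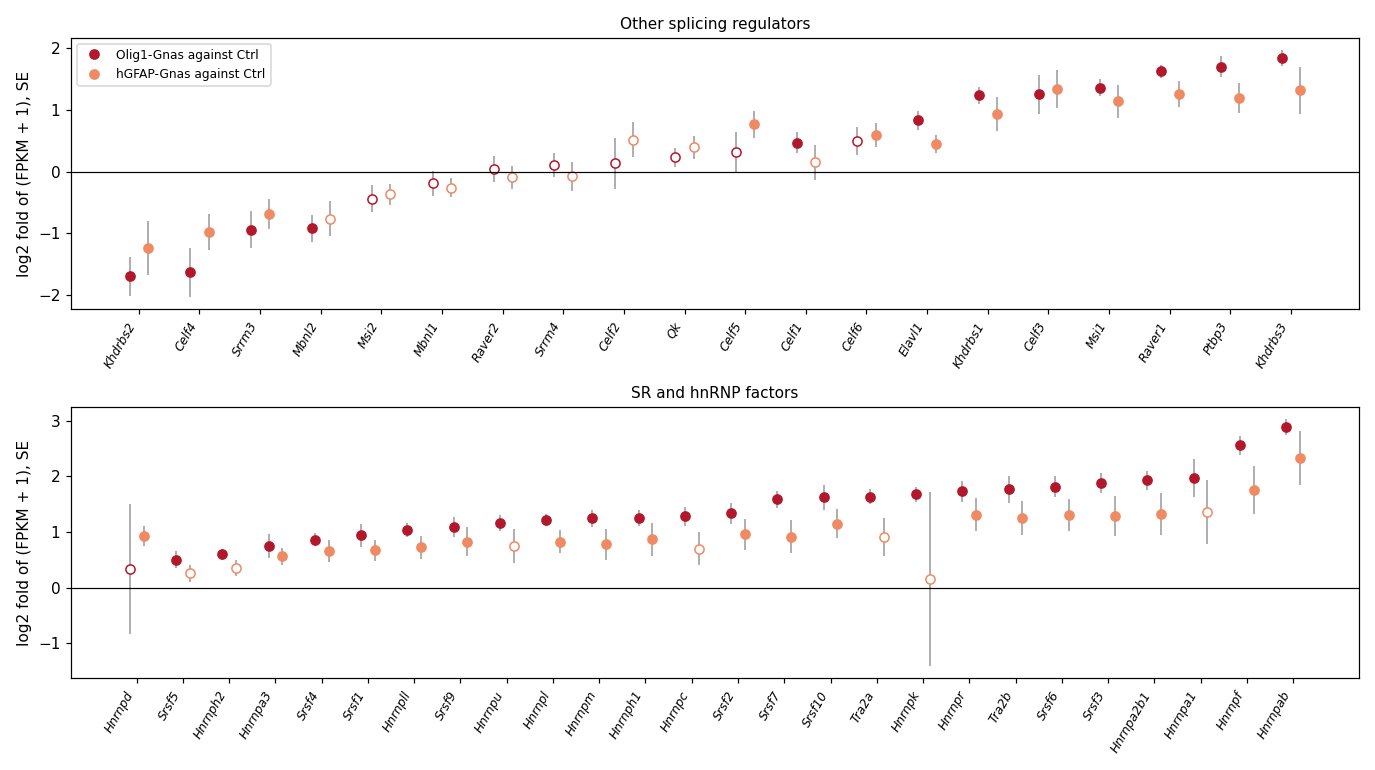
Log2 fold of FPKM + 1 with its SE against Ctrl for the other splicing regulators (top) and for SR and hnRNP factors (bottom), ordered by the value in Olig1-Gnas; filled points were called and open points were not. The upper list runs from -1.70 for Khdrbs2 to 1.85 for Khdrbs3 in Olig1-Gnas, and no value of the lower list is below 0 in either knockout.

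Besides Dlg4, other messages were read whose level a regulator is known to set. Gap43, a growth cone protein whose message HuD stabilizes, averaged 192 ± 54.4 FPKM in Olig1-Gnas and 201 ± 55.2 FPKM in hGFAP-Gnas, against 153 ± 16.5 FPKM in Ctrl (adjusted p = 0.369 and 0.304). Vamp1, a synaptic vesicle protein that RBFOX1 raises in mice, averaged 18.8 ± 15.3 FPKM in Olig1-Gnas and 59.7 ± 62.3 FPKM in hGFAP-Gnas, against 130.0 ± 31.5 FPKM in Ctrl. It fell in Olig1-Gnas (-3.15 ± 0.71, adjusted p = 0.00279) and was not called in hGFAP-Gnas (-1.80 ± 0.85, adjusted p = 0.106). Whether the regulators had a part in the levels of these messages was not tested.

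The genes most like each regulator were sought among 14005 genes as those with the smallest root mean square difference over the 16 knockout libraries, in log2(FPKM + 1) relative to the Ctrl mean. For Ptbp1 they were Rad18 at 0.15, Cbx2 at 0.18 and 2610039C10Rik at 0.19, where Ptbp1 itself lay 2.81 from the Ctrl mean. For Rbfox1 they were Negr1 at 0.21, Kif5a at 0.31 and Psd2 at 0.33, with Rbfox1 itself at 1.93. For Rbfox3 they were Fam73b at 0.21, Ezh1 at 0.23 and Ctsf at 0.23, with Rbfox3 itself at 0.96. For Elavl2 they were H2afy3 at 0.21, Apaf1 at 0.24 and Smpd3 at 0.26, with Elavl2 itself at 1.79. The nearest gene lay at 0.19 for Ptbp2 (itself at 0.89), 0.25 for Nova1 (0.70) and 0.23 for Nova2 (0.91). It lay at 0.12 for Rbfox2 (itself at 0.27), 0.20 for Elavl3 (0.40) and 0.19 for Elavl4 (0.43). For Rbfox2, Elavl3 and Elavl4 likeness thus largely means a level near that of Ctrl.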

How the data were processed

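Cerebellar RNA was profiled in 19 samples; the labels do not number the animals, so p-values measure the spread between these samples. Per the submitters' processing notes, the authors used TopHat, Cufflinks and mm9; no version or annotation is given in the sources used here. FPKM were deposited by the authors in 2 tables that share the Ctrl libraries. Ctrl 1 differs between them in 5106 genes (median ratio 1), and the Ctrl values of the 10 regulators by at most 0.57%, so the scale was taken as common. Each comparison with Ctrl used its own table.

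Genes reaching 1 FPKM in 3 or more libraries of a comparison were fitted with limma 3.58.1 in R 4.3.3 (trend, robust) on log2(FPKM + 1), which understates changes of low genes, and the fit was tested on simulated data. FPKM were not scaled further. The regulators, companion lists (older symbols matched through RefSeq) and markers were chosen with earlier results of these data known. From each companion list the 4 called genes with the largest folds in each direction were named, with Elavl1, Ptbp3, Srrm4 and the known target messages, of which 1 is not reported here. Libraries under 0.6 of the depth of Ctrl 2 formed the shallower class. Alternatives changed the offset, filter, scaling, moderation, zeros, design and libraries.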

Additional observations from a re-analysis of the deposited data

Results flagged for a closer look

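In Olig1-Gnas 6 the level of Rbfox2, at 36.3 FPKM, and that of Rbfox3, at 32.4 FPKM, lay farther below the other 7 Olig1-Gnas libraries than Dixon's ratio allows at its 95% level. Of 20 groups searched (10 genes in 2 knockouts) 2 were singled out, and chance alone singles out about 1 in 20. Olig1-Gnas 6 was also the lowest of the Olig1-Gnas libraries for Nova2, Elavl2, Elavl3 and Elavl4, which makes 6 of 10 genes, and the highest for Ptbp2. Its summed FPKM of 689165 was the highest of all libraries, and its depth was 0.959 of that of Ctrl 2.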

How the results depend on the processing

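In Olig1-Gnas the number of the 10 genes called stayed at 4 to 6 under every alternative run, and Ptbp1, Elavl2 and Rbfox1 were called in each. Without 1 library at a time it was 4 to 6, and 6971 to 9546 of all genes were called (5141 among the shallower libraries, where 1 Ctrl library is assumed to vary like the others). In hGFAP-Gnas 1 to 7 of the 10 genes were called when 1 library was left out (818 to 8164 of all genes): 1 without Ctrl 1, 1 without Ctrl 2, 3 without Ctrl 3 and 7 without hGFAP-Gnas 1. Among deeper libraries 0 of the 10 were called (6 of all genes), and among shallower ones 2 (2277). Between the knockouts 0 of the 10 were called under every alternative of the limma fit. Of all genes 11 to 104 were called when 1 library was left out, 35 with the filter at 5 FPKM, 178 in one fit over all groups, 166 when depth class was a term, 3 when Y-linked signal was one, and 3 among the deeper libraries. The causes were not tested.

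Same-numbered libraries showed no regular pairing: their deviations from the group means correlated across genes at -0.17 to 0.25. With only 3 Ctrl libraries this check cannot decide whether libraries of the same number shared a batch. With the replicate number as a block, 0 of the 10 and 0 of all genes were called in hGFAP-Gnas, 25 of all genes between the knockouts, and 6 of the 10 in Olig1-Gnas, where Ptbp2 was lost (0.52) and Nova2 (0.79) and Elavl4 (-0.47) were gained; the block leaves few degrees of freedom.

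Signs turned only for values that were not called. In Olig1-Gnas Elavl3 went to -0.06 with quantile normalization and -0.04 with upper quartile scaling, and Nova1 to -0.03 among shallower libraries. In hGFAP-Gnas Elavl3 went to 0 with upper quartile scaling and -0.09 with the replicate block, and Elavl4 to 0.13 among shallower libraries. Between the knockouts Ptbp2 went to -0.03 among shallower libraries, Nova2 to 0.02, Rbfox2 to 0.12, Elavl3 to 0.12 and Elavl4 to 0.17 with the Y-linked term, Rbfox2 ranged from -0.13 to 0 without single libraries (0 without Olig1-Gnas 6), and Elavl3 from -0.09 to 0.14. Over all tested genes quantile normalization gave a median of 0.06 in Olig1-Gnas (0.22 unscaled) and -0.01 in hGFAP-Gnas (0.19 unscaled), and of the called genes 50.6% were higher (60.5% unscaled) and 49.0% (67.1% unscaled).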
